A study of Mus musculus with 121 samples.

Results

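The 9 genes described here are the glucocorticoid receptor gene Nr3c1, genes known to respond to glucocorticoids (Fkbp5, Tsc22d3, Sgk1, Klf9, Mt1 and Mt2) and the Krüppel-like factor (KLF) genes Klf10 and Klf6. They were chosen by name of 31053 genes listed, and their counts were read in all 62 libraries of mouse fibroblasts. All 9 passed the filter on low counts (3 or more libraries at 1 CPM or above, where CPM is counts per 1000000), and 13292 genes were tested in all.

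The glucocorticoid receptor is a nuclear receptor that waits in the cytoplasm with chaperones, binds steroid, enters the nucleus and acts on genes through short DNA elements. Fkbp5 encodes a co-chaperone that lowers the affinity of the receptor for steroid, Tsc22d3 (also called Gilz) encodes a leucine zipper protein with anti-inflammatory action, and Sgk1 encodes a kinase of the insulin and stress pathways. Klf9, Klf10 and Klf6 encode zinc finger transcription factors, of which Klf9 is a direct receptor target and Klf10 is also known as a clock-controlled gene in other tissues. Mt1 and Mt2 encode metallothioneins, small cysteine-rich proteins that bind zinc and copper and are induced by metals, oxidants and glucocorticoids.

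Promoter windows of RefSeq (build GRCm38.p6, 250 bases before to 50 bases after each gene start) were found for 7 of the 9 genes, 14 windows in all. Nr3c1 and Klf10 are named only. The 6-base site AGAACA, read on either strand, which is the core of the receptor's element, occurred in 19% of 32851 windows of all genes, and AGAACA and TGTTCT separated by 3 bases occurred in 3 windows (0.00913%). A Sgk1 window is among these 3, at chr10:21993640-21993939 on the plus strand, where the spaced pair lies from -189 to -175 bases of the start (the start base counted as 0). Sgk1 has 6 windows, more than any other member, and they held 5 AGAACA in all. The single windows of Fkbp5, Klf9, Klf6, Mt1 and Mt2 held no AGAACA, and 1 of the 3 Tsc22d3 windows, chrX:140600473-140600772 on the minus strand, held 1. These are shown because Sgk1 is among the members called below, and the Tsc22d3 window is that of another member in which the site was found. Capitals mark AGAACA on either strand.
Sgk1: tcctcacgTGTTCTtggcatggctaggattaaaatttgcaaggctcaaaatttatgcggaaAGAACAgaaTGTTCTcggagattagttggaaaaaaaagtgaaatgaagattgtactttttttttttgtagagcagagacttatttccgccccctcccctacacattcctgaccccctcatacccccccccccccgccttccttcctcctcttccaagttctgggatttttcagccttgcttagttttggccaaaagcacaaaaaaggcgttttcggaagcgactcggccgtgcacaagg
Tsc22d3: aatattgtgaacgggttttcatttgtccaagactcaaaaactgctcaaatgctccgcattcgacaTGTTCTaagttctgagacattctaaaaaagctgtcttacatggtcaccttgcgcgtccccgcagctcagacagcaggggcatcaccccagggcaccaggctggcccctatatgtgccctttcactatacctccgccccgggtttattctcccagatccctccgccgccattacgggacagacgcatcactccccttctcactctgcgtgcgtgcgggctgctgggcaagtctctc

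The core of the metal response element was searched as TGCGCNC (in 15.4% of all windows) and TGCACNC (12.6%), on both strands. The Mt2 window, chr8:94172368-94172667 on the plus strand, held 2 of each, at -223, -128, -50 and 4 bases from the start. The Mt1 window, chr8:94178839-94179138 on the plus strand, held 1 TGCGCNC and 2 TGCACNC, at -23, 2 and 20 bases. These windows are shown because Mt2 and Mt1, which lie 5513 bases apart on the same strand, are the metallothionein genes measured here, and Mt2 was called in LH by titles. Capitals mark the metal response cores on either strand.
Mt2: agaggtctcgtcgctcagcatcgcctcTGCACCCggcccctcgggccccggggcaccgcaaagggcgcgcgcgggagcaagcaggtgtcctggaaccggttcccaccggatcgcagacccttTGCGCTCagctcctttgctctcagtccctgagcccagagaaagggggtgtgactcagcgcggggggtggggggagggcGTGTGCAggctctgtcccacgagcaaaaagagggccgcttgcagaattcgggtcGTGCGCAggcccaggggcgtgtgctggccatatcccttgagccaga
Mt1: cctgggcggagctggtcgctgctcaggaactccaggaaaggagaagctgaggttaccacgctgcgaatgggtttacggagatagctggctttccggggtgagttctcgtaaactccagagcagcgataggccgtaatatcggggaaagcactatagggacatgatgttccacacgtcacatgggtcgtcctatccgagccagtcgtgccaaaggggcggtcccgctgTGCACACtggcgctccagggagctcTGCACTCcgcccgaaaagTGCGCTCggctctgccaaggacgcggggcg

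CACGTG, an E-box that clock proteins can bind, occurred in 7.15% of all windows and in 1 window each of Sgk1, Klf6 and Fkbp5. In the Sgk1 window above it lies from -246 to -241 bases and overlaps the first AGAACA on the other strand. TGACGTCA, a cyclic AMP element (1.79% of all windows), occurred in no window of the 7 genes. A match only states that these letters are present. The genes lie on GRCm38 at chr10:21882184-21999903 (Sgk1), chrX:140539528-140600659 (Tsc22d3), chr8:94172664-94173568 (Mt2), chr8:94179082-94180327 (Mt1), chr17:28399094-28517527 (Fkbp5), chr19:23141226-23168134 (Klf9), chr15:38291463-38300706 (Klf10), chr13:5861482-5870394 (Klf6) and chr18:39410545-39519421 (Nr3c1). Mt2 overlaps Gm45774 and Fkbp5 overlaps Gm22146 and AC154912.1 on the other strand, and strand use in counting is not given in the sources used here, so reads of such partners may be mixed. On the same strand AC154912.5 and AC154912.3 overlap Fkbp5 and Mir1192 overlaps Klf9, where reads could be shared whatever the strand setting. Mt1 and Mt2 are close paralogs, and how well their reads can be told apart was not tested.

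The cells were an immortalized ear fibroblast line from Per2::Luc knock-in mice, in which the clock protein PER2 is fused to luciferase, all at the same expansion passage and cultured in microfluidic chambers. HL alternated 12 h of medium rich in glucose and insulin with 12 h of poor medium for 3 cycles of 24 h, LH began with the poor medium, and in HH each change brought fresh rich medium. All groups shared the same low serum and an insulin-free B27 supplement, whose usual formula holds corticosterone, and no group differed in added glucocorticoid. The study then let the cells run free for 12 h and collected RNA at 6 times 4 h apart, called 0 to 20 h here. The time 0 h is thus not the end of the last medium phase. Each group had 2 to 4 libraries, with 21, 22 and 19 libraries of HL, LH and HH. The labels number the libraries of a group as replicates. The study's methods describe its replicates in general as independent biological experiments, and the labels tie no library to a culture, so p-values measure the spread between these libraries. The titles also carry a clock hour, which over the 6 collections reads 20, 12, 4, 8, 12 and 16 in HL and HH and 20, 12, 16, 20, 12 and 16 in LH. These hours repeat and do not rise by 4 h, so the collection number set the time, and the LH libraries called 8 and 12 h here carry other hours than those of HL and HH. Without those 2 collections of LH the same number of members was called for levels, collections and rhythm, an alternative chosen after the data were seen. The sequencing method, 3′DGE, reads the 3′ end of each transcript, so a gene's count does not grow with its length.

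The total count of a library was 104912 (LH at 4 h, replicate 2) or between 2136819 and 11619095, and 1 count in the shallow library equals 9.53 CPM. The sources disagree on the names of 40 of the 62 libraries. The deposited sample titles give a name, and for 35 of these libraries the read summary of the study attaches a different name to the same library number, while 5 numbers are absent from it. The 22 others, all 19 of HH and the HL libraries at 0 h, have the same name in both. Results are given by titles and, where the names matter, by library numbers (57 libraries, 19 per treatment, with 1 library of LH at 16 h). Each of the 10 fibroblast markers was detected, and their summed level was 17886 to 40982 CPM. The 8 markers of leukocytes, endothelium, epithelium and Schwann cells summed to 0.963 to 4.72 CPM in HL and 0.975 to 4.09 CPM in HH, with Krt5 at 0 in every library and Adgre1, Cdh5 and Epcam near 0. In LH the sum reached 76.3 CPM, in the shallow library, where it was 8 counts of Ptprc.

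Mt1, Klf6, Sgk1 and Nr3c1 were the most abundant members and Klf10 the least. Mean levels over the 62 libraries were 150.2 CPM for Mt1 (SD 36.1), 144 CPM for Klf6 (SD 16.2), 142 CPM for Sgk1 (SD 176) and 126 CPM for Nr3c1 (SD 17.8), and their ranges overlapped. Klf9 (73.4 CPM, SD 13.6), Mt2 (56.8 CPM, SD 22.2) and Tsc22d3 (37.5 CPM, SD 10.1) followed, each also overlapping its neighbour. Fkbp5 (8.79 CPM, SD 4.64) and Klf10 (4.83 CPM, SD 1.95) were the lowest and overlapped as well. The range of Fkbp5 met that of Tsc22d3 only in the shallow library, where Fkbp5 had 3 counts (28.6 CPM) and Tsc22d3 had 1 count (9.53 CPM). The receptor gene itself ranged from 92 to 168 CPM, a coefficient of variation of 14.2%, and Klf6 was the steadiest member at 11.2%. Sgk1 was the most variable, at 123.5%, with a median of 90.8 CPM against a highest library of 1084 CPM. Since the RNA is from whole cultures, a lower level can come from fewer cells that express a gene or from less RNA per cell, and these cannot be told apart.

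**Figure D1:**
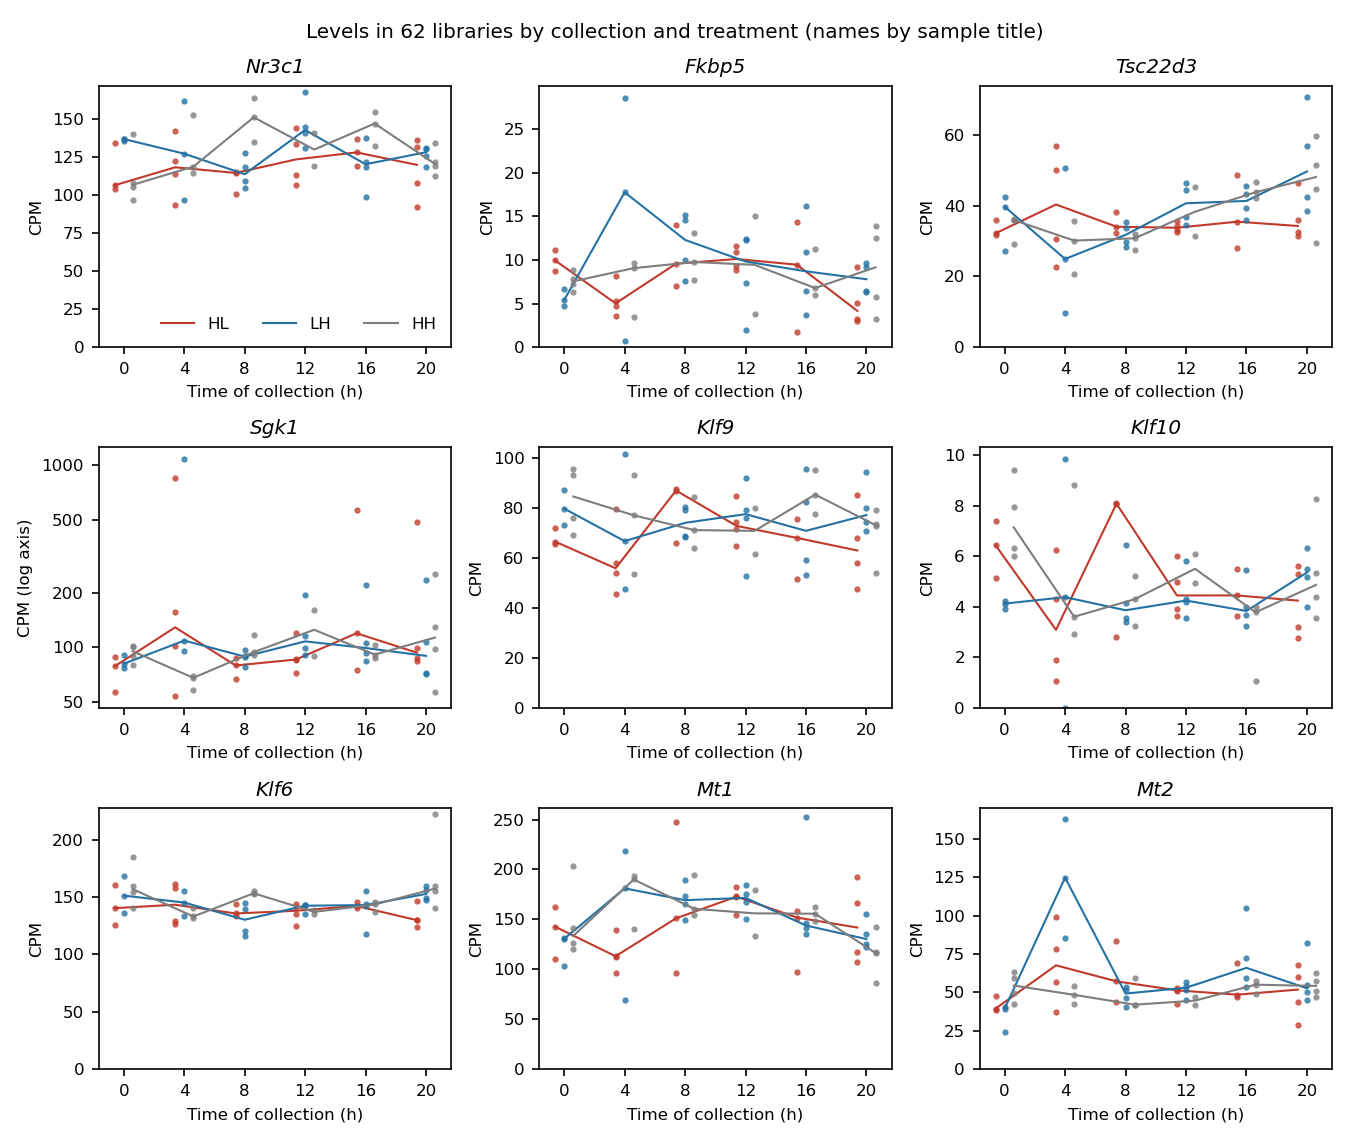
Level of each gene in CPM (counts per 1000000) against the time of collection in hours, with 1 point per library and a line through the median of each treatment (names by sample title). Sgk1 has a log axis, on which 4 libraries lie at 490.1 CPM or more while the median is 90.8 CPM. The median of Mt2 in LH at 4 h lies above those of its other LH collections.

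The first question was whether the order of rich and poor medium set the average level of these genes. No member passed both thresholds (0.01 over the 3 treatments and 0.05 in the pair, both unadjusted p in edgeR, after the levels of the study, whose multiple comparison test for pairs was not used) in LH against HL, HH against HL or LH against HH, by titles (1.16%, 1.2% and 0.91% of all genes passed) or by library numbers (1.34%, 0.568% and 1.63%). With p adjusted over all genes, edgeR called 0 genes of any kind by titles in each pair, with 756, 986 and 695 genes at an unadjusted 0.05, none of them a member. DESeq2 also called 0, with 796, 1019 and 731 genes unadjusted.

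Nr3c1 had 92 CPM at the lowest, 115 CPM at the median and 144 CPM at the highest in the 21 HL libraries, 96.4, 129 and 168 CPM in the 22 of LH, and 96.4, 132 and 164 CPM in the 19 of HH. The 3 ranges overlapped almost completely, and the log2 difference of HH over HL was 0.087 (SE 0.064). Klf9 was at 45.5, 67.9 and 87.5 CPM (lowest, median, highest) in HL, 47.5, 77.5 and 102 CPM in LH and 53.6, 77.1 and 95.5 CPM in HH. Its log2 difference was 0.11 (SE 0.07) in LH over HL and 0.11 (SE 0.07) in HH over HL by titles, and -0.0093 (SE 0.072) and 0.037 (SE 0.072) by library numbers. Fkbp5 had medians of 8.91, 8.36 and 7.80 CPM in HL, LH and HH, and its differences were no larger than 0.07 on the log2 scale by titles, each with an SE of 0.21, while by library numbers LH over HL was -0.33 (SE 0.22). Klf10, at medians of 4.98, 4.17 and 4.93 CPM, Klf6, at 140.1, 144 and 146 CPM, and Mt1, at 151, 149.9 and 148 CPM, differed in no pair by more than 0.09 log2 units by titles. By library numbers the difference of Mt1 in LH over HL changed sign, to -0.11 (SE 0.08). Tsc22d3 had medians of 34.1, 39.0 and 35.9 CPM, and its largest difference was LH over HH at 0.11 (SE 0.10). Its LH over HL was 0.09 (SE 0.09) by titles and -0.12 (SE 0.09) by library numbers. Mt2 differed by 0.24 (SE 0.13) in LH over HH, larger by titles than any of the members other than Sgk1, at an unadjusted p of 0.0697 and an adjusted p of 0.883 in edgeR.

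Sgk1 is the member whose comparison depended most on the names. By titles its lowest, median and highest levels were 54.0, 87.3 and 854 CPM in HL, 71.3, 94.2 and 1084 CPM in LH and 57.05, 91.4 and 253.03 CPM in HH. The medians are close, and the treatments differ in how many libraries stand far above them. The log2 difference of LH over HL was -0.11 (SE 0.29) by titles and 0.72 (SE 0.30) by library numbers, with the sign reversed, and that of LH over HH was 0.36 (SE 0.31) and 0.82 (SE 0.30). Leaving out some replicates by titles also turned the sign of LH over HL, as given with the processing. By library numbers the p over the 3 treatments was 0.0148, short of the threshold, with an adjusted p of 0.354 for LH over HH in edgeR.

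Change over the 6 collections was asked next, within each treatment and without a set shape. At an adjusted 0.05, 2 of the 9 members, Mt2 and Sgk1, changed over the collections of LH by titles (2.93% of all genes did), 0 changed in HL (0.301%) and 0 in HH (0.293%). By library numbers 0 members changed in HL (0.394%), LH (1.05%) or HH (0.803%). A replicate block added to the library numbers changed these calls in LH and, for Tsc22d3, in HH, as the last section gives. At an unadjusted 0.05 by titles, edgeR had 2 members in HL (8.98% of all genes), 3 in LH (16.9%) and 1 in HH (8.61%). DESeq2, also at an adjusted 0.05, called 0.466%, 6.13% and 2.02% of all genes in HL, LH and HH. Of the members it called 1 in LH, Mt2, and it gave Sgk1 no p.

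Mt2 in LH was at 24.4, 40.3 and 39.4 CPM at 0 h (replicates 2 to 4) and at 125, 85.8 and 163 CPM at 4 h (replicates 1, 2 and 4). All 3 libraries at 4 h were above all libraries at 0, 8 and 12 h. Replicate 2 at 4 h is the shallow library, where 85.8 CPM is 9 counts. Replicate 4 has the second lowest total of all libraries, 2136819. Replicate 1 is the library with the highest Sgk1, 1084 CPM. At 8 h Mt2 had 40.3, 46.6, 53.6 and 51.9 CPM, at 12 h 44.8, 51.9, 54.2 and 56.7 CPM, at 16 h 105, 72.4, 59.7 and 53.7 CPM, and at 20 h 82.5, 45.3, 54.9 and 50.5 CPM. A single library at 16 h reached the range of 4 h. The mean at 4 h, 125 ± 38.8 CPM (SD, n = 3), was 3.59 times that at 0 h, 34.7 ± 8.93 CPM (SD, n = 3), and the adjusted p over collections was 8.63e-05 in edgeR. It was 0.00545, 5.19e-05 and 0.000342 without replicate 1, 2 or 4 at 4 h. By library numbers these libraries carry other names (replicate 1 is then LH at 20 h, and the others are not listed), and the adjusted p of Mt2 in LH was 0.726. The summed markers of other cells were 4.15, 9.83 and 76.3 CPM (lowest, median, highest) in the LH libraries at 4 h against 1.76 to 4.27 CPM at 0 h, and the fibroblast markers 21232 to 27900 CPM against 29393 to 30103 CPM. Their part in the result was not tested.

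In HL Mt2 was between 28.9 and 99.5 CPM, with the highest libraries at 4 h (99.5 and 78.4 CPM) and 8 h (83.8 CPM), and its adjusted p was 0.524. In HH it stayed between 41.7 and 63.4 CPM, the narrowest range of the 3 treatments, with an adjusted p of 0.985. The test of treatment by collection, which asks whether the profiles differ between treatments, gave Mt2 an adjusted p of 0.164 and Sgk1 0.370. No member passed it (0.128% of all genes did, 17 genes), with 2 members (11.6% of all genes) at an unadjusted 0.05 by edgeR. Without HL replicate 3, Mt2 and Sgk1 passed it, as did 0.923% of all genes.

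Mt1, the neighbour of Mt2, was not called over the LH collections (adjusted p = 0.504 by titles and 0.125 by library numbers in edgeR), and the difference between both genes was not tested. In LH it was at 103, 131 and 131 CPM at 0 h and at 69.7, 181 and 219 CPM at 4 h. Its libraries at 4 h were the lowest and among the highest of LH, on either side of those at 0 h. Its highest mean in HL, 171 ± 11.9 CPM (SD, n = 4) at 12 h, was 1.48 times the lowest, 115 ± 17.8 CPM (SD, n = 4) at 4 h, with groups that did not overlap, but the adjusted p over the HL collections was 0.818. The 2 groups were picked by their means, which favours a gap, and the share of all genes with such a gap was not computed. In HH the highest mean, 175 ± 29.5 CPM (SD, n = 3) at 4 h, was 1.52 times the lowest, 115 ± 22.9 CPM (SD, n = 4) at 20 h, and these groups overlapped.

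Sgk1 in LH at 4 h had 1084 CPM in replicate 1, 95.3 CPM in replicate 2 and 109 CPM in replicate 4, against 77.3, 81.3 and 91.0 CPM at 0 h. The first of these libraries alone stands apart, and the other LH collections ranged from 71.3 to 233.5 CPM. The adjusted p over the LH collections was 0.0177 in edgeR, 0.945 without that library, 0.00632 without replicate 2 and 0.00126 without replicate 4 at 4 h, and 0.164 by library numbers. Without that library Sgk1 lost its call, and 0.498% of all genes were called in LH. In HL 3 libraries also stood apart, with 854 CPM at 4 h (replicate 3), 567.8 CPM at 16 h (replicate 2) and 490.1 CPM at 20 h (replicate 3), while the other HL libraries at those times had 54.0, 101 and 156 CPM, 74.7 and 119.6 CPM, and 84.6, 87.6 and 99.6 CPM. In HH only the libraries at 253.03 CPM (20 h, replicate 4) and 161 CPM (12 h, replicate 4) passed 150 CPM.

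The 24 h rhythm was tested with JTK_CYCLE, a rank test against cosine-like curves, at the study's threshold of 0.01. The amplitude limit that the study's figure also names was not used. P here includes a two-sided factor put in after a count was seen, which raises it. The study reported more rhythmic genes in each treatment than were called here, so its criterion and this one are not alike. No member passed by titles in HL (0.474% of all genes passed), LH (0.888%) or HH (1.24%). By library numbers Mt2 passed in HL (exact P = 0.000928, peak at 14 h), 1 of 9 members against 1.06% of all genes, and 0 passed in LH (1.36%). The adjusted P of Mt2 over all genes was 0.322. No member differed in rhythm between treatments by titles (0.0677%, 0.015% and 0.0527% of all genes did in LH against HL, HH against HL and LH against HH). At an unadjusted 0.05 there was 1 member by titles, Tsc22d3 in HH against HL, where 9.91% of all genes were. By library numbers its p in edgeR was 0.391 there and 0.0307 in LH against HH (adjusted p = 0.674), where 907 of 13198 genes were under 0.05.

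By titles Tsc22d3 had the smallest JTK P of the members, in HH, where its values do not depend on the names. It had 35.98, 29.1, 36.3 and 35.9 CPM at 0 h, 20.5, 30.1 and 35.6 CPM at 4 h, 30.8, 27.4 and 32.1 CPM at 8 h, 31.4 and 45.2 CPM at 12 h, 42.3, 46.7 and 43.8 CPM at 16 h and 29.5, 51.6, 59.8 and 44.6 CPM at 20 h. All 3 libraries at 16 h were above all libraries of 0, 4 and 8 h, while 1 library at 20 h was among the low ones. The means ran from 28.8 ± 7.61 CPM (SD, n = 3) at 4 h to 46.4 ± 12.9 CPM (SD, n = 4) at 20 h, a ratio of 1.61. The JTK P in HH was 0.0132 with a peak at 18 h by the exact test, just outside the threshold, and the change over the HH collections had an adjusted p of 0.275. With TMM-scaled totals the exact JTK P was 0.00671, past the threshold as for 1.22% of all genes. With a replicate block by library numbers the adjusted p over the HH collections was 0.0272 in edgeR, a call (2.14% of all genes were), against 0.0967 by library numbers without the block. A 24 h cosine fitted in edgeR gave Tsc22d3 in HH a trough-to-peak range of 0.81 log2 units with a peak at 17.6 h, at an unadjusted p of 0.00044 and an adjusted p of 0.117, or 0.0239 in the fit by library numbers, where HH is the same and the spread is estimated with other HL and LH names.

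In LH by titles Tsc22d3 had 27.1, 39.7 and 42.6 CPM at 0 h, 24.9, 9.53 and 50.5 CPM at 4 h and 70.8, 42.3, 38.6 and 57.01 CPM at 20 h, with 28.3 to 46.4 CPM in between. The values at 20 h overlapped those at 0 h and 4 h, and the lowest, 9.53 CPM, was 1 count. The cosine peaked at 18.7 h (p = 0.00709 from edgeR, adjusted p = 0.275). By library numbers the LH cosine peaked at 14.3 h (p = 0.0688 from edgeR, adjusted p = 0.575), so the profile depended on the names. In HL it did so as well, with a cosine p of 0.693 by titles and of 0.000766 (adjusted p = 0.176, peak at 16.1 h) by library numbers, where the exact JTK P was 0.0103. The difference in rhythm of HH against HL had an adjusted p of 0.353 by titles.

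The remaining members varied without a called profile. Nr3c1 in HH had its highest mean at 8 h, 149.8 ± 14.5 CPM (SD, n = 3), and its lowest at 0 h, 113 ± 19.2 CPM (SD, n = 4), which overlapped. By titles its highest and lowest collections did not overlap in HL (16 h over 8 h, a ratio of 1.16) or LH (12 h over 8 h, 1.27), nor did those of Klf6 in LH (20 h over 8 h, 1.17). Collections picked as highest and lowest from the same values tend to lie apart. The share of all genes without overlap was not computed, for these pairs or for that of Klf10 below. Klf10 in HH was at 5.997, 6.34, 7.95 and 9.42 CPM at 0 h and at 1.08, 3.99 and 3.79 CPM at 16 h, so that these groups did not overlap, but the adjusted p over the HH collections was 0.648. At such levels a library held a median of 25 counts of Klf10, and the gene had no count in the shallow library. Klf6 in HH reached 222 CPM in 1 library at 20 h (replicate 3), while the other 18 HH libraries lay between 132 and 185 CPM. Klf9 in HH ranged from 53.6 to 95.5 CPM, and its mean was highest at 16 h, 86.0 ± 8.79 CPM (SD, n = 3), and lowest at 20 h, 69.9 ± 10.9 CPM (SD, n = 4). By titles and with all libraries, Fkbp5 differed most between collections in LH, from 5.59 ± 0.963 CPM (SD, n = 3) at 0 h to 15.7 ± 14.1 CPM (SD, n = 3) at 4 h. Its 3 libraries at 4 h had 0.692, 28.6 and 17.8 CPM, on both sides of those at 0 h. The highest is the shallow library, with 3 counts, and without it the mean was 9.24 CPM, 1.65 times that at 0 h, below the 1.99 between 8 and 20 h in HL.

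Whether the members moved together from library to library needs no group names, and it was computed over all 62 libraries as the correlation of log2(CPM + 1) for the 36 pairs of members. Of these, 7 passed an adjusted 0.05 by Pearson's r and 4 by Spearman's rho in the permutation test, and 4 passed both. The share of all pairs of genes that would pass was not computed, so the counts are not particular to the members. Without the shallow library Rbms1, at r = 0.735 with Fkbp5, ranked only 21 among 7780 genes. Klf9 and Mt1 then had r of 0.66 and 0.61 with Fkbp5. Fkbp5 was correlated with Klf9 (r = 0.61, adjusted p = 9e-05, rho = 0.49, adjusted p = 0.00108, two-sided permutation test) and with Mt1 (r = 0.61, adjusted p = 9e-05, rho = 0.56, adjusted p = 0.00036, same test). Klf9 followed Mt1 (r = 0.53, adjusted p = 9e-05, rho = 0.42, adjusted p = 0.00864, same permutation test), and Sgk1 followed Mt2 (r = 0.52, adjusted p = 0.000463, rho = 0.52, adjusted p = 0.0009, same permutation test). Permutations could give no unadjusted p below 1e-05. The libraries share their depth and their culture across genes, so that a pair of genes in a library is not free of other differences between libraries.

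Sgk1 ran against Fkbp5 (r = -0.63), Klf9 (r = -0.53) and Mt1 (r = -0.49) by Pearson's r, but by rank these relations were -0.28, -0.29 and -0.23, with adjusted p of 0.113, 0.113 and 0.181 in the permutation test. The 4 libraries with the highest Sgk1, at 1084, 854, 567.8 and 490.1 CPM, had 0.692, 3.61, 1.73 and 2.94 CPM of Fkbp5 in that order, below its median of 8.76 CPM. Klf9 in them was 47.5, 45.5, 51.6 and 58.1 CPM and Mt1 was 69.7, 95.9, 96.8 and 117.5 CPM, each below the gene's median. Mt2 in the same libraries was 125, 99.5, 69.4 and 59.8 CPM, each above its median of 51.8 CPM. Without the 2 libraries farthest from the median of Sgk1, r was -0.52 with Fkbp5, -0.38 with Klf9, -0.30 with Mt1 and 0.35 with Mt2. Without the 2 farthest in Fkbp5, r was 0.54 with Klf9 and 0.49 with Mt1, and without the 2 farthest in Klf9, r was 0.47 with Mt1.

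For HL, LH and HH by titles, r of Fkbp5 and Klf9 was 0.72, 0.65 and 0.44. For Fkbp5 and Mt1 it was 0.62, 0.78 and 0.19, for Klf9 and Mt1 0.70, 0.53 and 0.25, and for Sgk1 and Mt2 0.59, 0.54 and 0.31. In HH, the treatment with no dispute of names, Mt1 had r of -0.59 with Tsc22d3, -0.56 with Klf6 and -0.46 with Sgk1, against 0.19 with Fkbp5 and 0.25 with Klf9. Whether these differ from the other treatments was not tested. Mt1 and Mt2 did not pass (r = 0.13, adjusted p = 0.535, rho = 0.12, adjusted p = 0.530, permutation test). Nr3c1 passed with no target, the nearest being Klf9 (r = 0.31, adjusted p = 0.0633, rho = 0.29, adjusted p = 0.113, permutation test).

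**Figure D2:**
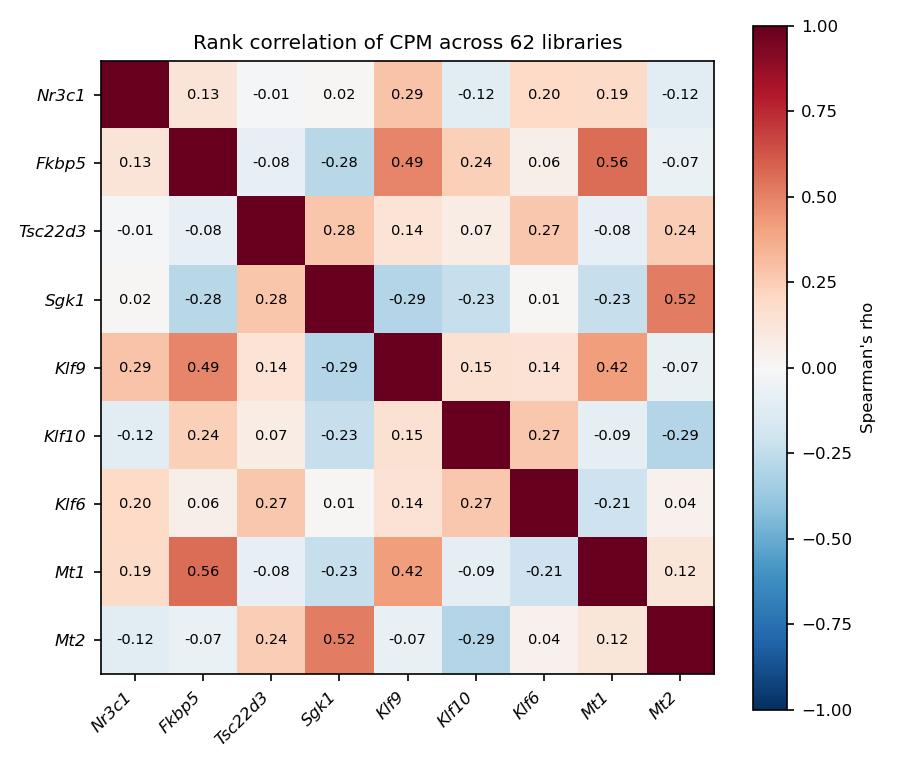
Spearman's rho of CPM between each pair of the 9 genes over 62 libraries, with colour from -1 (blue) to 1 (red). Fkbp5, Klf9 and Mt1 form a block of positive values (0.42 to 0.56), and Sgk1 pairs with Mt2 at 0.52.

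**Figure D3:**
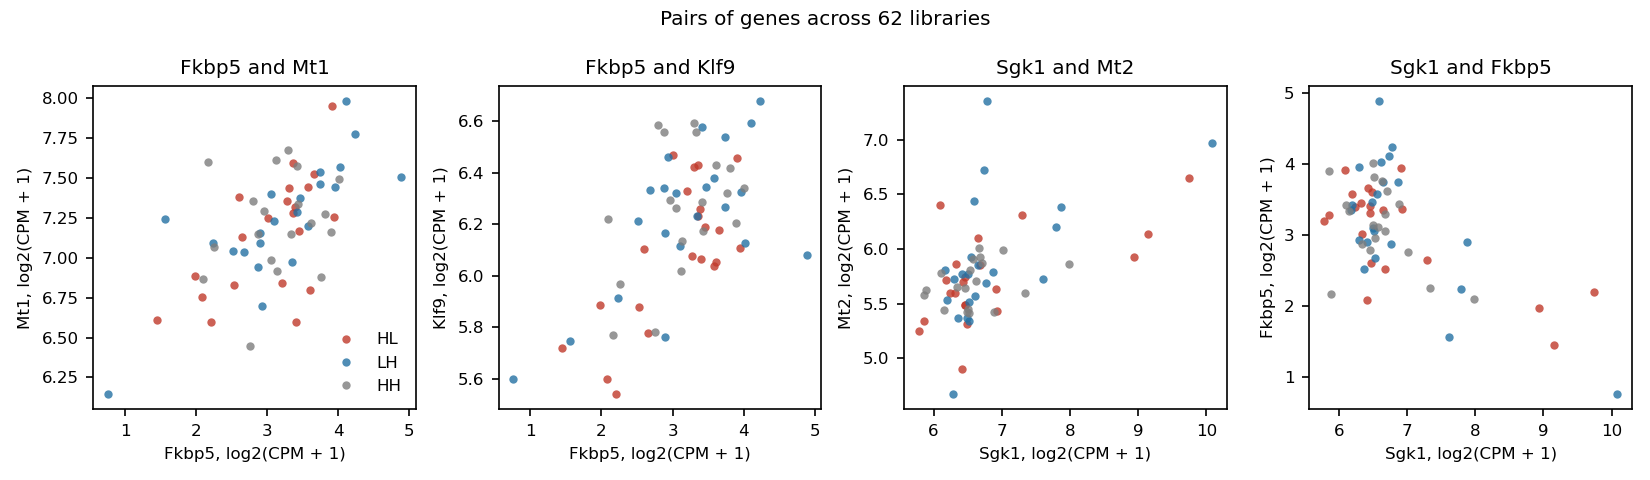
Level of a gene against another in log2(CPM + 1), 1 point per library and colour by treatment title. From left to right are Fkbp5 and Mt1 (r = 0.61), Fkbp5 and Klf9 (r = 0.61), Sgk1 and Mt2 (r = 0.52) and Sgk1 and Fkbp5 (r = -0.63), where 4 libraries lie far to the right in the panels of Sgk1.

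The 10 libraries with over 150 CPM of Sgk1 were then set against the replicate number, a comparison chosen after their values were seen. In the read summary's names 8 of the 10 are numbered 4 and the other 2 are not listed. Sgk1 in the 15 libraries numbered 4 was 70.0 CPM at the lowest, 161 CPM at the median and 1084 CPM at the highest, and in the 42 libraries numbered 1 to 3 it was 54.0, 88.1 and 129 CPM. Of the libraries numbered 4, 8 lay above every library numbered 1 to 3. Fkbp5 had a median of 6.44 CPM (0.692 to 9.95) in the libraries numbered 4 and of 9.20 CPM (3.24 to 16.2) in the others, and Mt1 had 135 CPM (69.7 to 160.6) and 157 CPM (86.1 to 252.5). These groups overlapped for both genes.

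In edgeR, with 1 mean for each treatment and collection, the replicate number was called for 3 of the 9 members, Sgk1, Fkbp5 and Mt1, against 21.1% of all genes. Replicate 4 over the mean of replicates 1 to 3 was 1.37 log2 units for Sgk1 (SE 0.19, adjusted p = 9.5e-08), -0.80 for Fkbp5 (SE 0.19, adjusted p = 0.000731) and -0.30 for Mt1 (SE 0.07, adjusted p = 0.000597). Mt2 was at 0.28 (SE 0.12, adjusted p = 0.0771) and Klf9 at -0.15 (SE 0.06, adjusted p = 0.072). The other 4 members were between -0.06 and 0.15. Without the library of 1084 CPM, Sgk1 was at 1.08 (SE 0.14) and the same 3 members were called. The members' share, 3 of 9 or 33.3%, is over few genes and stands beside the 21.1% of all genes. The summed fibroblast markers had a median of 28575 CPM (21232 to 40375) in the libraries numbered 4 and of 32874 CPM (21161 to 40982) in the others. Of the 10 fibroblast markers 9 were called by replicate number, 7 lower in replicate 4 (Dcn at -0.50) and 2 higher (S100a4 at 0.54 and Pdgfrb at 0.47). Their part in the result was not tested.

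The pattern depended on the names. With the replicate numbers of the titles 0 members and 0 genes of any kind were called (0%), with 357 genes at an unadjusted 0.05 in edgeR, and Sgk1 was at -0.36 (SE 0.27). In HH alone, where the names do not differ, replicate 4 of Sgk1 had 89.5 CPM at 0 h, 70.0 CPM at 4 h, 117 CPM at 8 h, 161 CPM at 12 h and 253.03 CPM at 20 h. Those at 4, 8, 12 and 20 h were the highest of their collections, and that at 0 h was not. The log2 difference was 0.61 (SE 0.18), with an unadjusted p of 0.00267 and an adjusted p of 0.097 in edgeR, and 0 members were called by replicate number in HH (0.529% of all genes were).

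**Figure D4:**
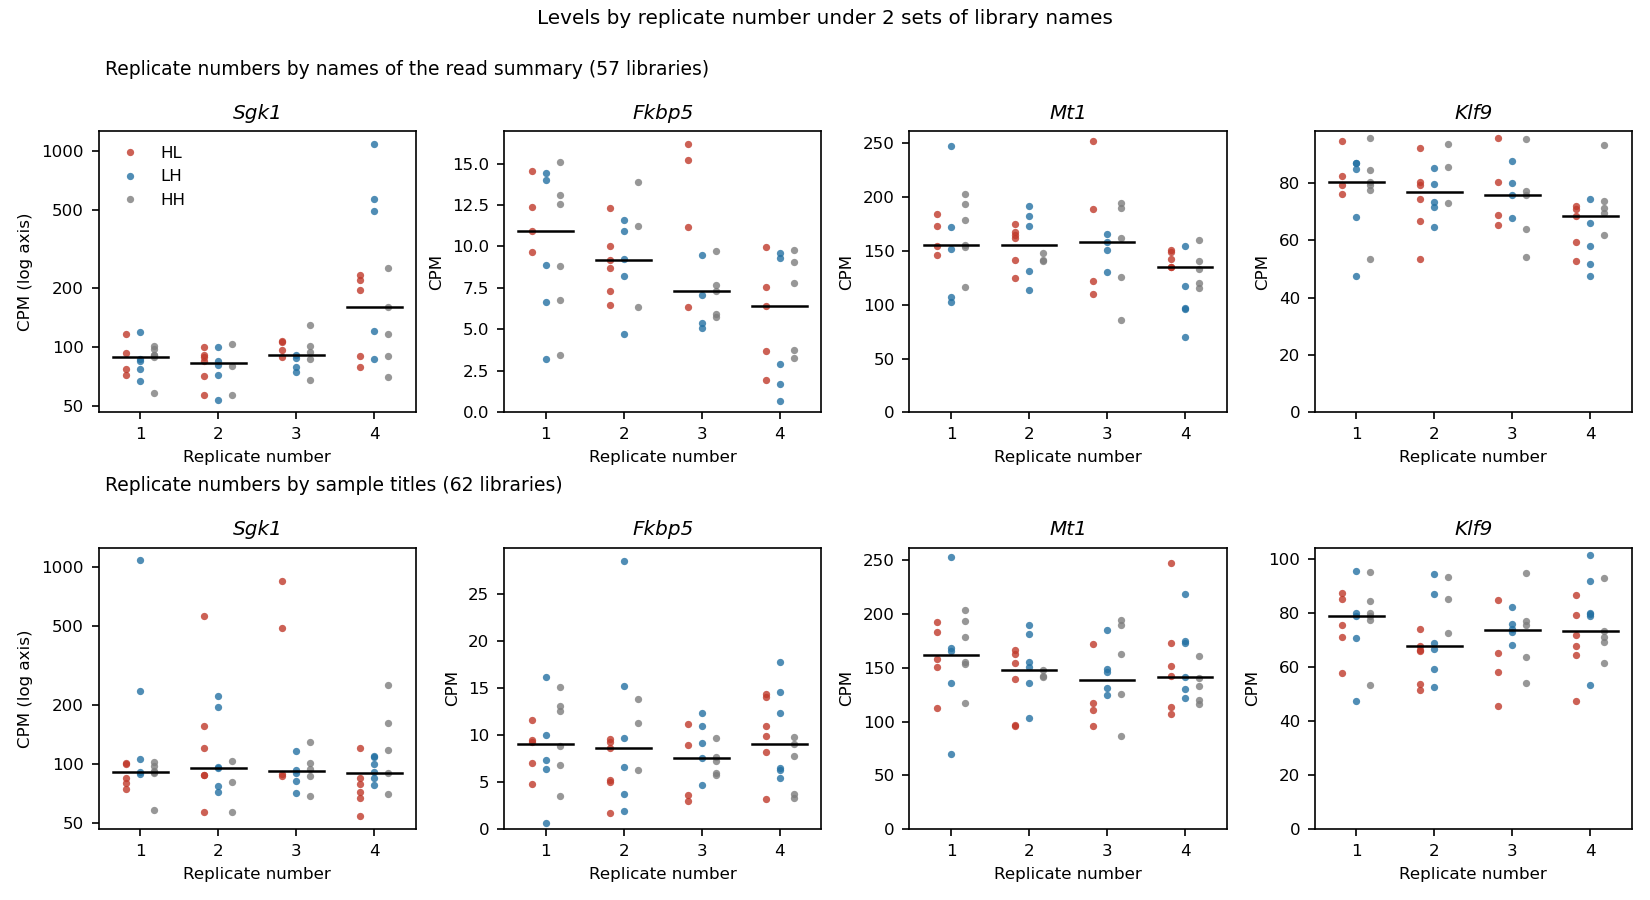
Level of Sgk1 (log axis), Fkbp5, Mt1 and Klf9 in CPM by replicate number, 1 point per library, with a black line at the median. In the upper row (read summary names, 57 libraries, with its treatment names as colours) the Sgk1 median of number 4 is 161 CPM. In the lower row (sample titles, 62 libraries) the highest Sgk1 libraries are spread over the numbers.

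The genes whose levels were most like those of each member over the 62 libraries were taken from 7780 genes with a mean of at least 10 CPM, 3 for each member, by Pearson's r of log2(CPM + 1). Sgk1 was followed most closely, by the early response gene Ier3 (r = 0.94), Ypel5 (r = 0.92) and Ereg, which encodes an EGF receptor ligand (r = 0.92). Ier3 ran from 106 to 4508 CPM and Ereg from 5.15 to 2002 CPM over the libraries. For Klf9 they were the actin crosslinker gene Actn1 (r = 0.79), the protease gene Mbtps1 (r = 0.78) and Dkk3 (r = 0.77). For Fkbp5 they were Rbms1 (r = 0.76), the actin bundling gene Fscn1 (r = 0.75) and Plscr3 (r = 0.74), of which Rbms1 and Plscr3 ranked 21 and 19 without the shallow library. For Mt1 they were Copg2 (r = 0.74), Scara3 (r = 0.72) and the cytokine gene Il18 (r = 0.71). Mt2 was nearest to the amino acid transporter gene Slc3a2 (r = 0.67), the kinase gene Pim3 (r = 0.66) and Klf16 (r = 0.66, rank 9 without the shallow library). Nr3c1 was nearest to the cohesin gene Stag2 (r = 0.67), the Mediator gene Med13 (r = 0.66) and the apoptosis inhibitor gene Xiap (r = 0.63). Klf6 had no close neighbour (Rnf103 0.53, Irf2bp2 0.52 and Klhl9 0.51).

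For Tsc22d3 and Klf10 the correlations themselves were lower without the shallow library. Adprhl2, Atraid and Ttc33 had r of 0.78, 0.75 and 0.75 with Tsc22d3, and without that library 0.64, 0.65 and 0.61, at ranks 10, 7 and 17. Unc5c, P4ha3 and 9930012K11Rik had r of 0.70, 0.69 and 0.69 with Klf10, and 0.50, 0.50 and 0.50 without it.

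Other genes of the same pathways, from lists that hold no member, were read in the same tests. No gene of any list passed the thresholds for levels between treatments. Of 24 further receptor targets 21 could be tested, 0 changed over collections, and 1 was rhythmic in HH, the cell cycle inhibitor gene Cdkn1a (exact JTK P = 0.00364, peak at 2 h). The highest of them, the NF-kB inhibitor gene Nfkbia and the matrix gene Thbs1, averaged 303 and 275.7 CPM. By replicate number in the read summary's names 13 of the 21 were called, against 21.1% of all genes, and 7 were higher and 7 lower in replicate 4 at an adjusted 0.05. Dusp1, a phosphatase gene that acts on MAP kinases, was 1.80 log2 units higher in replicate 4, the stress gene Sesn1 1.60, the repressor gene Bcl6 0.93 and Cdkn1a 0.74, while the transglutaminase gene Tgm2 was at -0.81. Nfkbia was at 0.45 and Thbs1 at -0.93. The median over the 21 was 0.11 against -0.0094 over all genes tested.

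Of 13 genes of receptor chaperones, coregulators and steroid enzymes, 0 changed over collections and 4 were called by replicate number (21.1% of all genes were, here and for the lists that follow): the corepressor gene Ncor1 (0.46), Ptges3 (0.24), Hsp90ab1 (-0.19) and the coactivator gene Ncoa2 (-0.42). Hsp90ab1, which encodes a form of the chaperone HSP90 that holds the receptor, averaged 4376 CPM, while Hsd11b1, which encodes the enzyme that regenerates active steroid, averaged 0.60 CPM, and Nr3c2, the mineralocorticoid receptor gene, 0.528 CPM. Of 14 other KLF genes 11 were tested. Klf3 (498 CPM) and Klf5 (161 CPM) were the highest, and both had higher means than Klf9, Klf10 and Klf6. Klf4 (adjusted p = 0.00557) and Klf16 (0.00607) changed over the LH collections by titles in edgeR, and by library numbers Klf4 did (0.0497) and Klf16 did not pass (0.698). By replicate number Klf4 (0.97), Klf13 (0.36) and Klf11 (-0.71) were called.

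Of 9 relatives of Sgk1 and Tsc22d3 and targets of the kinase, 0 changed over collections and 2 were called by replicate number, Tsc22d4 (0.64) and Tsc22d1 (-0.39), the highest of the list at means of 152 and 220.5 CPM. Sgk2 and Sgk3 averaged 0.502 and 1.47 CPM, so Sgk1 held nearly all counts of its family. Of 17 genes of metal handling 14 were tested, 0 changed over collections and 8 were called by replicate number, among them the glutathione synthesis gene Gclc (1.38) and the zinc transporter genes Slc39a14 (0.71), Slc30a4 (0.52), Slc39a10 (0.37) and Slc39a7 (0.21). Slc39a7 and Slc39a6 were the highest, at means of 255.95 and 89.2 CPM. Mt3 and Mt4 were at or near 0, so Mt1 and Mt2 were the metallothionein genes measured in these cells. For reference, 5 of 6 clock genes (Nr1d1, Nr1d2, Dbp, Per2 and Per3) changed over the HH collections, and 5 were rhythmic in HH by JTK_CYCLE. In HL and in LH 3 of the 6 changed by either set of names. By titles the adjusted p of Dbp in edgeR was 0.000383 in HL and 0.00703 in LH, and by library numbers 7.33e-12 and 2.44e-09. That of Nr1d1 in HL went from 0.00066 to 4.43e-09, and that of Nr1d2 in LH from 0.175 to 2.69e-05. Per3 in LH went the other way, from 0.0308 to 0.199. These names are the ones on which the calls of Mt2 and Sgk1 in LH rest.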

How the data were processed

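The measurement was 3′DGE RNA sequencing of Per2::Luc fibroblasts that had received HL, LH or HH. Per the submitters' processing notes, STAR 2.6.0a, HTSeq 0.9.1 and mm10 were used, and the authors deposited raw counts per gene, without normalization, as 121 sets, 1 per sequencing run. Neither the annotation release nor the use of strand is given in the sources used here. Runs were summed (59 libraries had 2 runs and 3 had 1), since the chi-square of their counts, per degree of freedom, was 1.27 to 2.09 between runs of a library (median 1.41) and 2.92 to 119.9 between libraries of a group (median 11.7). No run fell under the study's minimum, 2500 genes over 5 cpm. The read summary marks 3 libraries as removed, which were kept here. Lines without a gene were dropped (reads on no feature, 18.4% to 29.1%). CPM is the count over the library total. Totals were 104912 to 11619095, and a gene at 1 CPM has few counts in most libraries, so low genes are the least precise.

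A gene was tested if 3 or more libraries had 1 CPM or above, with edgeR 4.0.16 (quasi-likelihood, TMM, Benjamini-Hochberg adjustment over all genes). Levels were fitted with treatment and collection, and collections, their interaction with treatment and replicate numbers with 1 mean per group. JTK_CYCLE was written from its description (period 24 h, phases every 2 h) with an exact two-sided P multiplied by the 12 phases. The two-sided factor was put in after a first count was about double that known from earlier results of these data. Correlations used 100000 permutations. In simulated data edgeR found 200 of 200 genes changed 2-fold in LH against HL past both thresholds (66 false calls) and JTK_CYCLE 199 of 200 rhythms in HH (58 false), in runs over 12338 and 13292 genes.

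The members and lists were chosen with earlier results of these data known. The lists were compiled from general knowledge, and 1 marker of other cells is not reported here. From each list, the 2 genes of highest mean and up to 5 called genes of smallest p are named, together with some low relatives chosen after their values were seen, and for each member the 3 genes most like it. The test of replicate numbers was chosen after Sgk1 values were seen. Symbols came from GENCODE M21 (30934 of 31053 identifiers matched) and promoters from RefSeq. Alternatives were the library numbers, DESeq2 1.42.0, other scaling and filters, single runs, a replicate block and leaving out replicates.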

Additional observations from a re-analysis of the deposited data

Results flagged for a closer look

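Of 81 sets of 4 libraries (9 members in 9 groups of treatment and collection by titles), 6 held a library far from the other 3 by Dixon's test. Chance flags about 1 in 20. Sgk1 gave 3 of the 6: 854 CPM in HL at 4 h, replicate 3 (the others 54.0 to 156 CPM), 490.1 CPM in HL at 20 h, replicate 3 (84.6 to 99.6 CPM), and 220.6 CPM in LH at 16 h, replicate 2 (84.5 to 105.5 CPM). Tsc22d3 in HH at 0 h was at 29.1 CPM in replicate 2 (35.9 to 36.3 CPM). Mt2 in HL at 12 h was at 42.1 CPM in replicate 2 (51.0 to 52.6 CPM), and Mt1 in LH at 16 h was at 252.5 CPM in replicate 1 (135.4 to 146 CPM). The last 2 groups and those of Sgk1 hold other libraries when the read summary's names are used, and the group of Tsc22d3 does not change.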

How the results depend on the processing

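Over all alternatives, 16 counts of called members moved by over 1.5 times from the reported count and the others did not, and of 448 single values 425 kept their direction and call, 6 reversed, 5 became calls, 8 lost the call and 4 correlations fell under 0.25. Without the 3 libraries listed as removed, or without the LH collections at 8 and 12 h, no count of called members changed (both chosen after the data were seen, and the interaction was not run in the second). By library numbers the members called over the LH collections went from 2 to 0 and those rhythmic in HL from 0 to 1, and the log2 difference of Sgk1 in LH over HL went from -0.11 to 0.72 (0.43 with the replicate block added). Leaving out replicates gave -0.58 to 0.36 for that difference, above 0 without HL replicate 2 or 3 or LH replicate 4. It gave 1 to 2 called members in LH, with 1 without LH replicate 1 or 3, where 0.349% and 1.31% of all genes were called. In the interaction it gave 0 to 2 (Mt2 and Sgk1 without HL replicate 3, with 0.923% of all genes). The adjusted p of Sgk1 in LH was 0.939 without LH replicate 1 and 0.0752 without LH replicate 3. DESeq2 called 1 member in LH, Mt2 (6.13% of all genes), and gave Sgk1 no p. In edgeR, leaving out LH collection 2 replicate 1 left 1 (0.498% of all genes). With no filter on low counts 1 member, Sgk1, was called over the HL and over the HH collections, with 3.08% and 2.4% of all genes. In that fit of 20731 genes edgeR gave every gene the spread of the trend (prior degrees of freedom infinite, against 10.1). By JTK_CYCLE 1 member was rhythmic in HH with TMM-scaled totals (Tsc22d3, P = 0.00671), and the cosine at an unadjusted 0.01 called 1 member in HH and 1 in LH (2.87% and 3.27% of all genes). By replicate number, 3 called members became 0 by titles, where Sgk1 turned to -0.36, and 0 in HH alone. The cause of these changes was not tested.

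Replicate numbers recur across groups, so a replicate block was fitted. By titles, libraries of the same number did not deviate together (median correlation 0.0015 over 452 pairs, and 13 of 62 libraries closest to their own number). By library numbers the median was 0.160 over 365 pairs, with 64.7% above 0.1 and 30 of 56 libraries closest to their own number. By titles the libraries therefore share only a number. By library numbers many same-number pairs deviated together and others did not (lowest correlation -0.30), so pairing by those numbers is not settled. With the replicate block by titles, adjusted p in LH was 6.81e-05 for Mt2 and 0.0249 for Sgk1 in edgeR. The count stayed at 2, and the share of all genes in that fit is not given here. With the block by library numbers, 1 member was called in LH (3.49% of all genes) and 1 in HH (Tsc22d3, 0.0272, 2.14%). Depth limits Klf10 and Fkbp5 most, at medians of 25 and 48 counts per library.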
